A study of Homo sapiens with 7 samples.

Results

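Cathepsins are the proteases that digest protein inside the lysosome, and 10 of their genes, CTSA, CTSB, CTSC, CTSD, CTSF, CTSH, CTSK, CTSO, CTSS and CTSZ, were described in human colon carcinoma cells treated with bafilomycin A1. Members were chosen by name: every non-control spot of the array whose gene name equals one of these symbols was taken, which gave 14 probes for 10 of the 36337 gene names on the array. CTSA and CTSZ have 2 probes each, CTSC has 3, and the other members have 1 probe each. Of the members, 8 are cysteine proteases, CTSD is an aspartic protease and CTSA is a serine carboxypeptidase.

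The cells were HCT116, a near-diploid colon cancer line of epithelial origin, here as the HCT116 H2B-GFP derivative, in which a fusion of histone H2B with GFP marks the chromosomes, kept in DMEM with 10% FBS per the labels. They were exposed to 10 nM bafilomycin A1, an inhibitor of the vacuolar proton pump, for 30 h, and 4 biological replicates were each measured on 1 single-colour Agilent array from 100 ng of total RNA. The 3 samples of untreated HCT116 H2B-GFP cells were not analysed here, so no value below is a response to the drug, no difference between groups was tested and no p-value of a difference is given. All values come from 1 derivative of 1 cell line.

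Cathepsins are made as inactive precursors in the endoplasmic reticulum, most of them are tagged with mannose 6-phosphate in the Golgi apparatus, and receptors for this tag carry them to endosomes. In the acidic lumen the propeptide is cut off and the mature enzyme becomes active, so the family depends on the proton pump that bafilomycin A1 blocks. CTSB, CTSD, CTSF, CTSK and CTSS cut within protein chains, as CTSO is thought to do, whereas CTSA, CTSC, CTSH and CTSZ mainly remove residues from chain ends.

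Values are background-subtracted fluorescence signals in the intensity units of the scanner, and levels are log2 signals relative to the median of the array. A probe counted as detected where its spots were well above background, and a gene where at least 1 probe was detected on all 4 arrays. By this measure 9 of the 10 cathepsins were detected, against a background of 52.5% of all gene names. Of the 14 probes, 12 were detected on all 4 arrays, against 48.7% of all probes. The exceptions were the only probe of CTSS and 1 probe of CTSA, whose spot on replicate 3 was left out as an outlier. Probes differ in how strongly they bind, so levels are compared between arrays and never between probes or genes.

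Replicate 3 stands apart from the other arrays and bears on most values below. The scanner software marked 2249 of its 58717 spots as outlying, against 514 to 725 on the others. On replicate 3 most of these, 1883, were flagged only for their local background. Spots flagged themselves numbered 366 there, against 331, 275 and 410 on replicates 1, 2 and 4. Of all detected genes, 48.6% had their highest level on replicate 3. For 4107 pairs of detected probes of 1 gene, the log2 difference of the downstream minus the upstream probe lay above its own mean over the arrays by a median of 0.17 on replicate 3, and by -0.08, -0.08 and -0.01 on replicates 1, 2 and 4. The order of probes along the gene is that of transcription, and this measure was chosen after values had been seen. All 4 arrays lay on 1 slide, so that slide could not be tested as a batch. The part of these array differences in any result on replicate 3 was not tested.

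Among the enzymes that cut within protein chains, CTSD and CTSB had the smallest SDs between the replicate arrays in the study's normalization. After normexp correction and quantile normalization the SD of CTSD was 0.19, above the 0.06 of CTSB, the 0.06 of CTSF and the 0.13 of CTSK. CTSD is the main aspartic protease of the lysosome, read by probe A_33_P3243907 at chr11:1774425-1774484 (GRCh37, minus strand). Its signal was 3623, 3025, 2872 and 2754 on replicates 1 to 4. The levels of 5.56, 5.44, 5.36 and 5.45 gave a mean of 5.45 ± 0.08 (SD, n = 4), and the highest array exceeded the lowest 1.15-fold. CTSB, an endopeptidase that also removes dipeptides from the end of chains, had signals of 1921, 1712, 1931 and 1471. Its level was 4.65 ± 0.10 (SD, n = 4) with a 1.19-fold span. Replicate 4 was lowest for CTSB and replicate 3 for CTSD, and in both genes the arrays lay close together.

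In the study's normalization, 7.4% of 500 detected genes with the nearest mean level had a smaller SD than CTSD. For CTSB the share was 11.8%, and for CTSF, a papain-like cysteine protease, 6.2%. After normexp correction and quantile normalization CTSD, at 0.19, lay above the median SD of 0.11 over all detected genes. CTSB and CTSF, both at 0.06, lay below it. With the processed signal the SD of CTSF was 0.17, close to the median of 0.18. The CTSF probe A_23_P24433 at chr11:66330943-66331002 (minus strand) gave signals of 40.8, 33.8, 30.8 and 31.8. These values lie near the lowest signals that the software still called well above background, which were 21.5, 21.5, 20.8 and 22.3 on the 4 arrays. The CTSF level was -1.03 ± 0.12 (SD, n = 4), the span was 1.21-fold, and replicate 1 was highest.

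CTSK and CTSO both lay highest on replicate 3. CTSK is best known as the collagen-degrading protease of osteoclasts, and its probe A_23_P34744 at chr1:150768853-150768912 (minus strand) gave 647, 703, 798 and 495. The level was 3.22 ± 0.25 (SD, n = 4), and replicates 3 and 4 set the 1.46-fold span. CTSO, a widely expressed and little studied cysteine protease, was read at chr4:156845387-156845446 (minus strand) with signals of 213, 182, 306 and 180.0. Replicate 3 alone stood high, at a level of 2.13 against 1.38 to 1.51 on the others. The CTSO level was 1.63 ± 0.34 (SD, n = 4) with a 1.68-fold span, and Dixon's ratio, the gap of the farthest array divided by the whole range, was 0.827, just under the limit at which 1 array counts as apart.

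CTSS, which trims the invariant chain of MHC class II in antigen-presenting cells, was the only member not detected. The signal of its probe A_24_P242646 was -6.77, -5.92, -8.01 and -8.41 on replicates 1 to 4, so all 4 arrays lay below background and none has a log2 value. The software's p-values for equality with the background were 5.7e-05, 3.9e-04, 9.5e-07 and 1.6e-06, in the direction of less signal. Signals at or below 0 on all 4 arrays were found for 3147 of 50599 probes, or 6.22%, and 6.26% of probes had no log2 value on any array. The bases 31 to 60 of the CTSS probe are shown because its base composition is unusual, with the longest run of A and T in capitals.
CTSS A_24_P242646: acttttcaagtattgaaagtagAATAAAAA
The whole probe of 60 bases has a GC content of 20%, against a median of 43.3% over all probes. Only 131 probes, or 0.259%, have a GC content this low, and 16 of them, or 12.2%, were detected on all 4 arrays. The probe maps to chr1:150703513-150703572 (minus strand), 65280 bases from the probe of CTSK, which was detected on every array. The share of the probe's base composition in the missing signal was not tested.

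Of the enzymes that act on chain ends, CTSH was steady on 3 arrays and higher on replicate 3. CTSH is an aminopeptidase, and its probe A_23_P14774 at chr15:79214209-79214268 (minus strand) gave 3395, 2979, 4189 and 2557. The level was 5.53 ± 0.25 (SD, n = 4) and the span 1.48-fold. Without replicate 3 the SD was 0.06.

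CTSZ, a cysteine carboxypeptidase also called cathepsin X, showed by far the widest spread of any detected member probe. Probe A_23_P40240, designed on the reference mRNA, gave signals of 267, 967, 2327 and 331 on replicates 1 to 4. Replicates 1 and 4 were low, replicate 2 intermediate and replicate 3 high. The levels of 1.80, 3.79, 5.06 and 2.39 had a mean of 3.26 ± 1.46 (SD, n = 4), and the span was 9.58-fold. The other CTSZ probe, A_33_P3250398, gave 307, 255, 362 and 236 on the same arrays. Its level was 2.04 ± 0.23 (SD, n = 4) with a 1.42-fold span, so the rise of replicate 2 over replicate 1 was seen by only 1 of the 2 probes.

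The 2 probes match different stretches of the CTSZ gene on the minus strand of chromosome 20, at chr20:57570361-57570420 and chr20:57571653-57571712. The second was designed on a cDNA clone that its record describes as carrying frame-shift errors, and its entry lists no RefSeq transcript. Bases 31 to 60 of both probes are given because they identify the probes whose values differ, with the longest run of A and T in capitals.
CTSZ A_23_P40240: gtgggcAATAATATggcatttaagaggtga
CTSZ A_33_P3250398: tcattttcttaaggtcattcctagAAAAAA
The difference of the downstream minus the upstream probe was -0.20, 1.92, 2.68 and 0.49 in log2 units on replicates 1 to 4. The deviation of this difference from its mean was 1.46 on replicate 3 and 0.70 on replicate 2, where the median over all pairs was -0.08.

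Of the 24633 probes detected on all 4 arrays, 10, or 0.0406%, had an SD at or above that of A_23_P40240, itself included. The other 9 each lay below the array median on at least 1 array, whereas the CTSZ probe lay above it on all 4. None of them shared its order of arrays, with replicate 3 highest, then 2, 4 and 1. In other normalizations the span of the CTSZ probe was between 6.73-fold and 10.5-fold, in the same order. Leaving out replicate 3 still gave an SD of 1.02. The other CTSZ probe, A_33_P3250398, spanned only 1.42-fold on the same arrays. The part of the probe, the spot or the array in the wide span of A_23_P40240 was not tested. RNA from whole cultures would also not tell fewer cells with CTSZ transcript from less transcript per cell.

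**Figure D1:**
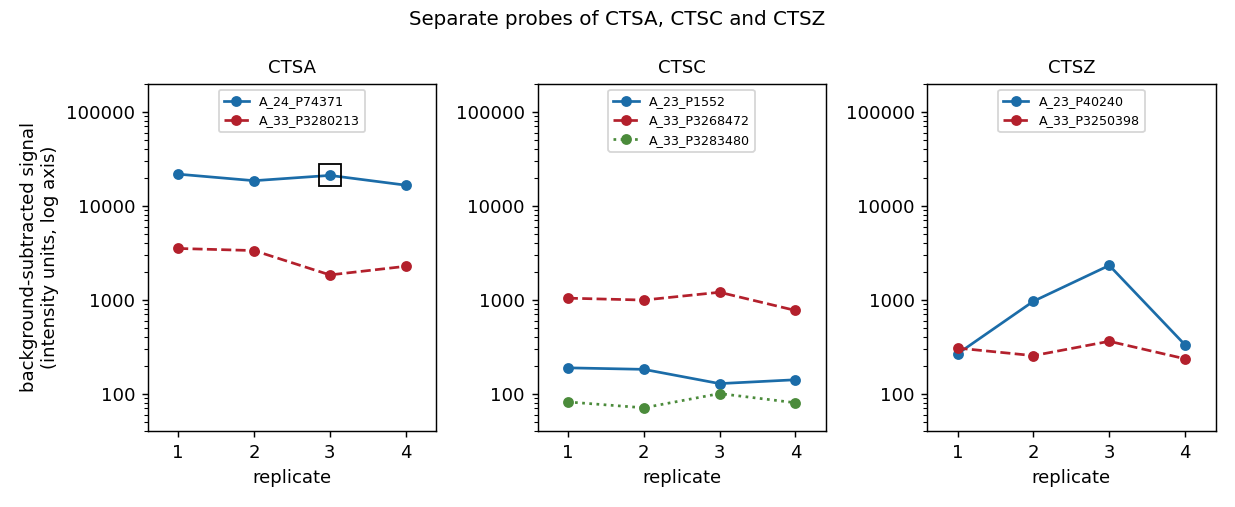
Background-subtracted signal (intensity units, log axis) of each probe of CTSA, CTSC and CTSZ on replicates 1 to 4, with 1 point per array and lines joining the points of 1 probe. The square marks the CTSA spot left out as outlying; CTSZ probe A_23_P40240 runs from 267 to 2327 while A_33_P3250398 stays between 236 and 362.

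CTSA, a serine carboxypeptidase that also protects beta-galactosidase and neuraminidase 1 in a lysosomal complex, had probes that disagreed on replicate 3. Probe A_24_P74371 at chr20:44527241-44527300 (plus strand) gave 21759, 18544, 21110 and 16617. The upstream probe A_33_P3280213 at chr20:44523321-44523380 gave 3524, 3347, 1843 and 2277. The first was level across arrays, and the second was lowest on replicate 3 with a span of 1.82-fold and a level of 5.25 ± 0.40 (SD, n = 4).

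The spot of A_24_P74371 on replicate 3 carried an outlier flag for its local background and was left out. On that array the subtracted background was the fitted surface (largest difference 0), and 1883 spots were flagged for their local background alone, against 366 flagged themselves. With the spot kept, the levels of this probe were 8.15, 8.05, 8.24 and 8.04, an SD of 0.09. The treatment of this 1 spot sets the value of the gene. When it was left out, the median over probes was 6.84, 6.82, 4.72 and 6.61, with an SD of 1.02 and a Dixon's ratio of 0.892. When it was kept, the SD was 0.17 and the ratio 0.362. The number of probes behind a gene differed between arrays in the same way for 8.41% of detected genes.

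Bases 31 to 60 of the CTSA probes are shown as the pair that diverged, with the longest run of A and T in capitals.
CTSA A_24_P74371: ttagcacTTTATTcccgcagcagttcctga
CTSA A_33_P3280213: gtgtgctggaggggtgcccagccATTTTAg
Both have a GC content of 55%, and their entries share a RefSeq transcript. The downstream minus upstream difference was 2.63, 2.47, 3.52 and 2.87 in log2 units, highest on replicate 3. Among 2860 pairs that share a RefSeq transcript, the difference was highest on replicate 3 in 62.6%, with a median deviation of 0.20 on that array, so the direction of the CTSA pair was the common one.

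CTSC, also called dipeptidyl peptidase I, activates the serine proteases of immune cell granules, and its 3 probes read different transcript variants. Probe A_23_P1552 was designed on variant 1, A_33_P3268472 on variant 3 and A_33_P3283480 on variant 2. The variant 1 probe is placed at chr11:88033771-88042347 (minus strand), a stretch longer than its 60 bases, and the others lie at chr11:88061281-88061340 and chr11:88054028-88054087. Bases 31 to 60 are shown to tell the variant probes apart, with the longest run of A and T in capitals.
CTSC A_23_P1552: ccactgactgctgAAATAcagcaaaagatt
CTSC A_33_P3268472: tatgATTTgccacatctgaggaacaaactg
CTSC A_33_P3283480: tccctatgtattacacgATATATgaccaat

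The variant 1 probe gave signals of 189, 182, 129 and 141, with replicate 3 lowest. The variant 3 probe gave 1043, 995, 1205 and 771, and the variant 2 probe 82.0, 71.1, 101 and 80.4, both highest on replicate 3. On that array the deviation from the mean was -0.30 for variant 1, 0.28 for variant 3 and 0.28 for variant 2, and these signs held in the 5 other normalizations and outlier rules tried. The SDs were alike, at 0.22, 0.21 and 0.23, and the spans were 1.42-fold, 1.41-fold and 1.42-fold. Because the variant 1 probe was the middle of the 3 on every array, the gene value of 1.18 ± 0.22 (SD, n = 4) is that of this probe. With the mean over probes the SD of CTSC fell to 0.06. The pair formed by the variant 3 and variant 1 probes moved against most pairs, with a deviation of -0.58 on replicate 3, and their entries share no RefSeq transcript.

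**Figure D2:**
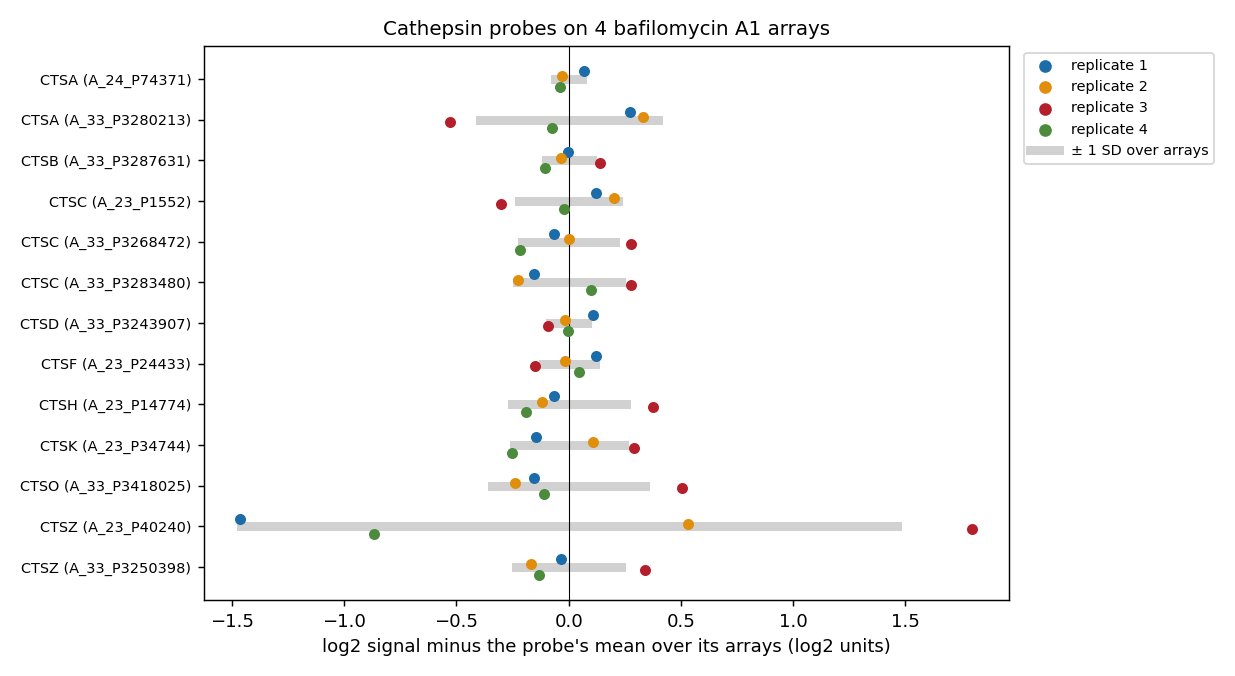
Deviation of each detected cathepsin probe from its own mean over arrays (log2 units), with 1 point per array coloured by replicate and grey bars of ± 1 SD. Replicate 3 lies farthest to the right for CTSB, CTSH, CTSK, CTSO, both CTSZ probes and the variant 2 and 3 probes of CTSC, and farthest to the left for A_33_P3280213 of CTSA, A_23_P1552 of CTSC, CTSD and CTSF; the spot left out of A_24_P74371 is not drawn.

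Over the detected members, the SD between arrays ran from 0.08 for CTSD to 1.02 for CTSA, with a median of 0.25, against 0.21 for all 19083 detected genes. With normexp and quantile normalization these medians were 0.15 and 0.11. With outlying spots kept they were 0.22 and 0.20, the SD of CTSA was 0.17 and the highest was 0.81 for CTSZ. A span above 1.4-fold, the fold that the study's methods use to call a changed gene, was reached by 6 of 9 members, against 46.3% of all detected genes. These were CTSA, CTSC, CTSH, CTSK, CTSO and CTSZ. With outlying spots kept CTSA was not among them, and 5 members exceeded 1.4-fold. Of the 12 probes detected on all arrays, 9 spanned more than 1.4-fold, against 43.5% of such probes. The spread depended on replicate 3: without it CTSZ alone spanned more than 1.4-fold, against 21.5% of all detected genes, and the median SD was 0.07 in the members and 0.14 in all genes.

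Replicate 3 was the highest array for 5 members and the lowest for the other 4. The highest were CTSB, CTSH, CTSK, CTSO and CTSZ, against 48.6% of all detected genes with their highest level there. The share of all detected genes lowest there was not computed. For CTSC the low value is that of the variant 1 probe, whereas its variant 2 and 3 probes were highest on replicate 3. For CTSB the deviation of 0.14 turned to -0.03 after normexp correction and quantile normalization; no other gene changed sign on replicate 3 in the scalings tried. CTSA, CTSD and CTSF were highest on replicate 1 and CTSC on replicate 2, where 20.1% and 25.1% of all detected genes were highest. No member was highest on replicate 4, against 6.23% of all detected genes. These orders depend on the scaling. CTSF was highest on replicate 4 with the processed signal, with normexp and quantile normalization and when centred over all probes, and CTSD was highest there in the last of these, in which no member was highest on replicate 1. In the same 3 scalings 17.8%, 16.1% and 19.1% of all detected genes were highest on replicate 4. CTSB was highest on replicate 1 with normexp and quantile normalization. The mean deviation of the 9 members was -0.02, 0.07, 0.03 and -0.09 on replicates 1 to 4. The value on replicate 3 rests on the CTSA spot: with outlying spots kept, the mean deviation was 0.18 on replicate 3 and -0.13 on replicate 4. Only CTSA had an array apart by Dixon's ratio, against 8.51% of all detected genes.

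**Figure D3:**
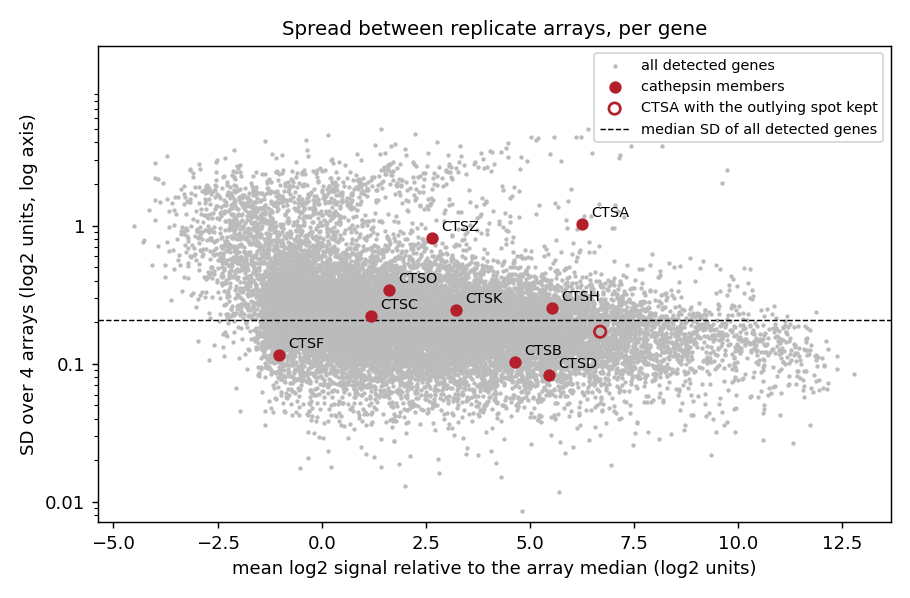
SD over 4 arrays (log2 units, log axis) against mean log2 signal relative to the array median for all 19083 detected genes in grey and the 9 detected cathepsins in red. CTSD and CTSB lie under the dashed median of 0.21, CTSZ and CTSA above most genes of like level, and the open circle is CTSA at an SD of 0.17 with its outlying spot kept.

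**Figure D4:**
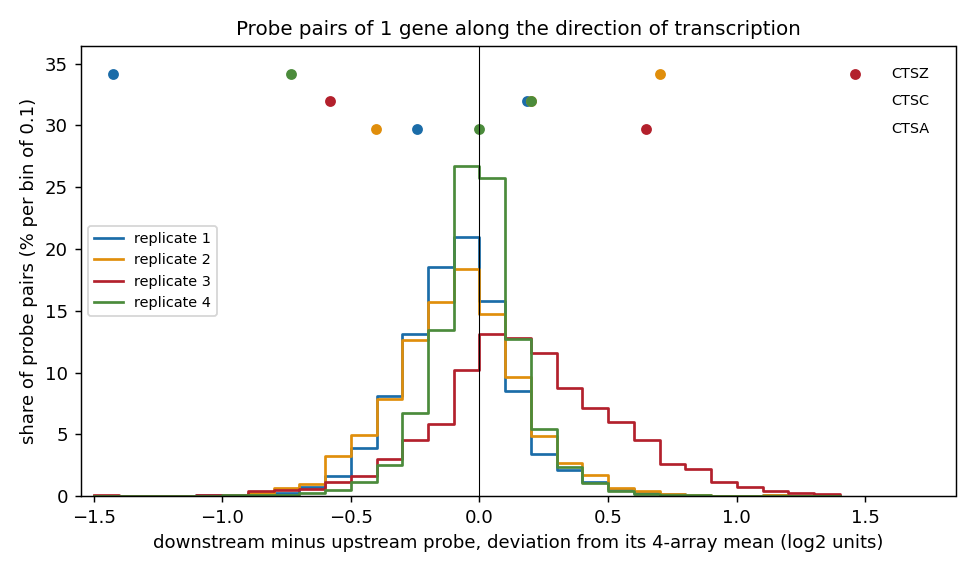
Share of 4107 probe pairs (percent per bin) by the deviation of the downstream minus upstream log2 difference from its mean over arrays, 1 line per replicate, with the CTSA, CTSC and CTSZ pairs as points above, coloured by replicate. The line of replicate 3 is shifted to the right, with a median of 0.17; on that array CTSA (0.65, its flagged spot kept) and CTSZ (1.46) lie to the right and CTSC (-0.58) to the left.

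Of 6 other cathepsin symbols on the array, 5 were described by the same measures. CTSL1 and CTSL2, both cysteine endopeptidases, and CTSE, an aspartic protease, were detected, which makes 3 of 5, and none of the 3 spanned more than 1.4-fold. Their SDs were 0.08, 0.20 and 0.19. CTSG, a serine protease of neutrophil granules, was well above background on 3 arrays, and CTSW, of cytotoxic lymphocytes, on none. Other lysosomal peptidases were all detected (7 of 7), and 4 spanned more than 1.4-fold. Of all gene names 52.5% were detected, and 46.3% of all detected genes spanned more than 1.4-fold. LGMN, the asparaginyl endopeptidase that processes some cathepsin precursors, varied most among them with levels of 3.87, 4.18, 3.33 and 3.59 and an SD of 0.37.

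Of 12 genes for inhibitors of cathepsins, 11 were found by symbol and 6 were detected, where 52.5% of all gene names were detected. CST1, CST7, SERPINB3, SERPINB4 and SERPINB13 were well above background on no array. CSTB, the intracellular stefin B, was the steadiest at 8.23 ± 0.09 (SD, n = 4). CST2, a secreted cystatin near background, had an SD of 0.46. It was the only detected inhibitor with a span above 1.4-fold, which 46.3% of all detected genes had. The median SD of the 6 was 0.16.

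Genes that tag and carry cathepsins were detected throughout. Over the array, 52.5% of gene names were detected, and 46.3% of detected genes spanned more than 1.4-fold. All 12 of the mannose 6-phosphate list were detected, among them GNPTAB and GNPTG, subunits of the enzyme that builds the tag, and the receptors M6PR and IGF2R. Of these 12, 5 spanned more than 1.4-fold, with SDs from 0.13 for NAGPA, which uncovers the tag, to 0.40 for the adaptor subunit AP1S1. The 5 other sorting receptors, such as SORT1, were detected, and 3 of them exceeded 1.4-fold. The CTSA partners GLB1 and NEU1 were both detected with SDs of 0.22 and 0.06, and neither spanned more than 1.4-fold. A further list held the lysosomal genes LAMP1, LAMP2, CD63, LIPA, NPC1, NPC2 and MCOLN1. Of these, 7 of 7 were detected and 3 spanned more than 1.4-fold, with the largest SD of 0.42 in LAMP2.

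PSAP, the precursor of the saposins and a substrate of CTSD, varied in both of its probes. Probe A_24_P309317 gave signals of 6485, 7678, 2484 and 3916, and probe A_23_P12680 gave 22356, 23228, 12043 and 14968. In both, replicate 2 was highest and replicate 3 lowest. The gene's SD was 0.56, and the SD of GM2A, an activator of lipid breakdown in the same list of 2, was 0.15.

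The label of a colon epithelial line was checked against marker genes. By the same rule 52.5% of all gene names were detected. Of 9 colon epithelial markers, 8 were detected, among them EPCAM, KRT8, KRT18, KRT19 and CDX2, while VIL1 was well above background on no array. Of 7 leukocyte markers, 6 were found by symbol and 4 were detected. These 4 were CD68, CD3E, ITGAM and PTPRC, the last by 1 of its 5 probes. MS4A1 was well above background on no array. CD14, of the same list, had usable spots that were well above background on only 2 arrays. Of 5 fibroblast markers, VIM and COL1A1 were detected, and COL1A2 and LUM were on no array. Of 3 osteoclast markers, tested beside CTSK, ACP5 and OSCAR were detected and CALCR was on no array.

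Promoter sequence was read for 6 members, CTSA, CTSC, CTSD, CTSF, CTSH and CTSZ, as RefSeq windows from 250 bases before to 50 bases after the start of transcription (GRCh38.p14); CTSB, CTSK, CTSO and CTSS had no match. The E-box CACGTG, the core of the element bound by the lysosomal regulator TFEB, was searched on both strands and reads the same on each. It was present in 3 of the 6, CTSA, CTSD and CTSF, and in 7.26% of 35116 promoter windows. The longer motif TCACGTGA, which contains it, was present in CTSA alone and in 0.98% of all windows. The longest motif searched, which extends TCACGTGA by a base at each end, was present in 0 of the 6 and in 0.353% of all windows. The stretches with CACGTG are shown with the motif in capitals.
CTSA chr20:45891278-45891330 plus strand: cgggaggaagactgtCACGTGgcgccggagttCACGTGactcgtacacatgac
CTSD chr11:1763954-1763989 minus strand: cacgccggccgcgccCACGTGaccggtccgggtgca
CTSF chr11:66568637-66568744 minus strand: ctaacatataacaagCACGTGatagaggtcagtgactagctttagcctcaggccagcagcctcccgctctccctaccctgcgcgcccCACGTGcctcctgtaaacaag
The motif starts 42 and 25 bases before the start site in CTSA, 47 bases before it in CTSD, and 123 and 51 bases before it in CTSF. A match is a description of letters, and binding was not measured.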

How the data were processed

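Gene expression was measured in 4 bafilomycin A1 cultures on single-colour (Cy3) arrays. The authors deposited 1 scanner file per array from Agilent Feature Extraction 10.7.3.1 (version per the submitters' processing notes). Its signals are deposited intensity values, background-subtracted by the software and not normalized between arrays. The deposited files also give flags and a p-value per spot for equality with the background. Probe coordinates are those of GRCh37, and no genome annotation of that build was used, so exons and UTRs are not stated. No spot was saturated (0 spots).

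Following the study's normalization, log2 of the background-subtracted signal was centred on the array's median (over probes other than controls), and probes of 1 gene were combined by their median. Non-positive signals were left out, as were spots flagged as outliers by themselves or by their local background (514 to 2249 per array). A probe was detected on an array if the well-above-background flag was set for over 50% of its spots. Spots well above background were between 55.6% and 60.4% of all. The software's own error of detected member spots was 10.0% to 17.2% of the signal, and the number of 4 arrays limits the precision. SDs, spans and Dixon's ratio describe spread between arrays. Each culture was measured on 1 array, so differences between cultures and between arrays cannot be told apart. No test between groups was possible with 1 group.

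The members and the gene lists were chosen with earlier results of these data known. Genes named are all members with every probe and 5 of the 6 other cathepsin symbols. Of each list, mainly those detected on no array, those with the largest or smallest SD, or those that act on cathepsins directly are named. Planned protein features were not computed. Settings varied were the software's processed signal (centred at the 75th percentile), normexp (offset 50, limma 3.58.1) with quantile normalization, other centres, probe and detection rules, outlying spots kept and each array left out. An outlier rule that ignores local background flags was added after seeing the data. A value counted as moved if it differed by over 1 SD of its leave-one-out values, a count if it differed over 1.5-fold. On simulated data for 19083 genes with a true SD of 0.2, the median SD of 0.178 equalled the theoretical 0.178; Dixon's ratio marked 5.23% of genes without a shift and 63.0% of 200 genes with a log2 shift of 2 on 1 array. Python 3.11.15 (numpy 2.4.6, pandas 2.3.3, scipy 1.17.1, matplotlib 3.10.9) and R 4.3.3 were used.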

Additional observations from a re-analysis of the deposited data

Results flagged for a closer look

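Dixon's ratio was computed for 9 detected members, 12 member probes and 60 detected genes of the associated lists, and chance marks about 5% of such sets of 4 arrays. The 6 members with 1 probe enter both as gene and as probe, so 75 distinct sets were tested. In 6 of them 1 array lay apart, each time replicate 3; over all detected genes the share with an array apart was 8.51%. CTSA was low on replicate 3, with a level of 4.72 where the remaining arrays gave 6.61 to 6.84, a value that comes from the local background flag on 1 spot. CST6, a cystatin, lay at 7.94 against 7.66 to 7.68, and CSTA, the intracellular stefin A, at 5.34 against 5.00 to 5.01. AP1G1, a subunit of the clathrin adaptor AP-1, lay at 5.70 against 4.98 to 5.02. The sorting receptor SORT1 lay at 5.56 against 5.01 to 5.04, and GLB1, the beta-galactosidase held in the CTSA complex, at 5.11 against 4.63 to 4.70. The last 5 were all high on replicate 3, the array with most spots flagged as outlying, mainly for their local background. The part of that array's differences in these values was not tested. The CTSA value of 4.72 is that of probe A_33_P3280213, which was itself lowest on replicate 3 without passing the limit; the other CTSA probe had 3 values and was not among the 12 probes.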

How the results depend on the processing

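With 4 arrays of 1 group, only spread between arrays can be described, and dim probes such as that of CTSF are limited by their signal over background. No paired analysis was possible because the untreated samples were not analysed here and the values come from no test. The number of detected members was 9 in 4 of the 5 planned detection or outlier rules and 8 when all probes of a gene had to be detected; it was 9 with any array left out. The list genes detected numbered 60, with 57 to 63 under the rules tried and 60 to 61 with 1 array left out. Members spanning more than 1.4-fold numbered 6, and 5 with outlying spots kept and 3 after normexp and quantile normalization. With 1 array left out the number was 1 (without replicate 3) to 6. The median SD of 0.25 was 0.0702 without replicate 3 and at most 0.287 without another array, and 0.152 after normexp and quantile normalization, where that of all detected genes was 0.112. The SD over arrays of the mean member deviation, 0.07, was 0.0171 for the processed signal, 0.121 with only probes detected on all 4 arrays, 0.121 with only probes that have 4 values, 0.136 with outlying spots kept and 0.136 with local background flags ignored, and ran from 0.0454 (without replicate 4) to 0.0825 when 1 array was dropped. The count of 1 member with an array apart rose to 2 with the processed signal, and to 2 with normexp and quantiles, where CTSC joined CTSA, and was 0 with only probes detected on all 4 arrays, with only probes that have 4 values, with outlying spots kept or with local background flags ignored; for these last 4 the CTSA value rests on other spots by construction, and otherwise the cause was not tested. Of 354 levels and SDs of single genes and probes under alternatives, 255 stayed within the SD among the leave-one-out values and 99 moved.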
